A study of Mus musculus with 4 samples.

Results

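The genes that make cholesterol, together with the proteins that switch them on and those that move and store the product, were examined in epididymal adipose tissue of obese mice. A list of 28 gene symbols was fixed by name: 20 enzymes from acetoacetyl-CoA to cholesterol or its isoprenoid side branch, 4 genes of the SREBP2 control circuit and 4 genes of intracellular cholesterol handling. This list and the further lists below were chosen with earlier results of these data known. Their counts beside the share of all genes are therefore descriptions and not an independent test. All 28 were found among the 24421 genes of the deposited matrices, and all 28 passed the filter on low values. The mice were wild-type male C57BL/6J. WC1 (weight cycling) mice began a high-fat diet (HFD) at 8 weeks of age, ate it for 8 weeks, ate standard diet for 2 weeks, and then returned to HFD for 6 weeks. Ctrl mice began HFD at 10 weeks of age and ate it for 14 weeks without a break. Both groups therefore had 14 weeks of HFD in all, were on HFD when the tissue was taken and were 24 weeks old at the end, so that they differed in the break and in the age at which HFD began. There were 2 libraries per group. The labels do not say that each library came from 1 mouse, so the p-values measure the spread between libraries, which may in part be technical.

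Cholesterol is built from acetyl-CoA through mevalonate, the isoprenoid units, squalene and a series of sterol intermediates. The transcription factor SREBP2, encoded by Srebf2, is held in the endoplasmic reticulum with its escort SCAP while INSIG proteins bind the pair. When sterol levels in that membrane fall, SCAP carries SREBP2 to the Golgi, where proteases release the active fragment, and genes of the whole pathway are transcribed. Adipose tissue is a large store of free cholesterol, most of it in the lipid droplets and membranes of adipocytes, and fat-laden macrophages of obese adipose tissue take up and esterify cholesterol as well.

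The libraries held between 61465029 and 90965297 reads, and the 28 genes had between 488 reads (Stard4, the lowest) and 104386 reads (Npc2, the highest) in a library. Values are given as CPM, reads that the authors scaled with a rescaled library size, so that the libraries summed to between 976415 and 1047785 CPM. Markers of the cell types in the tissue also differed between the groups. The 10 adipocyte markers (Adipoq, Plin1 and others) summed to 10511 and 11850 CPM in Ctrl and to 19262 and 24801 CPM in WC1, with both WC1 libraries above both Ctrl libraries in 10 of 10 (32.7% of all genes tested) and 7 called higher (10.2% of all genes tested, by a limma adjusted p under 0.05). The 12 macrophage markers (Adgre1, Cd68 and others) summed to 11422 and 10358 CPM in Ctrl and to 6729 and 4618 CPM in WC1, with both WC1 libraries lower in 10 of 12 (36.6% of all genes tested) and 5 called lower (7.71% of all genes tested). The 7 endothelial markers summed to 430 and 475 CPM in Ctrl and 891 and 1124 CPM in WC1, with 5 called higher. Of 9 fibroblast markers 4 were called lower, and of 8 mesothelial markers 0 were called in limma, with 0 at an unadjusted p under 0.05. The summed mesothelial level was 71.6 CPM in WC1 1 and 193 CPM in WC1 2, compared to 143 and 106 CPM in Ctrl. Of 8 genes specific to the epididymis, 6 were listed at 0 in every library. Whether these shifts have a part in the results below was not tested. In bulk tissue, fewer cells of a type cannot be told apart from less RNA per cell.

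Sterol synthesis was first compared between WC1 and Ctrl as a whole. Of the 20 enzymes of the mevalonate and sterol pathway, 11 were called higher in weight-cycled tissue, and the transcript of their regulator Srebf2 did not pass the test. In limma on log2(CPM + 1), with Benjamini-Hochberg adjustment over all 14106 genes tested, 12 of the 28 genes rose at an adjusted p under 0.05, compared to 10.2% of all genes tested (17.9% were called in either direction). None of the 28 fell in limma by that threshold (7.71% of all genes tested did), although 17 of the 28 had an unadjusted p under 0.05 (37.8% of all genes tested), among them Soat1 and Npc1, which were lower. The 12 were Acat2, Hmgcs1, Mvk, Pmvk, Idi1, Fdps, Fdft1, Lss, Nsdhl, Hsd17b7, Sc5d and Insig1. The increases lay between 0.35 and 0.96 on the log2 scale, with limma adjusted p values between 0.013 and 0.036. The median log2 fold change was 0.27 over the 28 genes and -0.02 over all genes tested. Both WC1 libraries lay above both Ctrl libraries in 19 of the 28 (32.7% of all genes tested) and below them in 4 (36.6%). Summed over the enzymes, the level was 979 and 980 CPM in Ctrl and 1404 and 1454 CPM in WC1, a ratio of 1.46. The same ratio was 1.97 for the summed adipocyte markers.

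The calls depended on having both Ctrl libraries. A fit with 1 library left out takes its spread from the complete group alone, so its calls cannot reflect the spread of the other group. Without Ctrl 1 or without Ctrl 2, 0 of the 28 genes were called in limma, while 13 and 13 had an unadjusted p under 0.05 (18.6% and 22.1% of all genes tested) and the median of the 28 fold changes stayed at 0.29 and 0.27. Over all genes, 2 were called higher and 4 lower without Ctrl 1, and 6 higher and 6 lower without Ctrl 2. Without WC1 1 the same 12 genes were called higher along with 5 called lower (Msmo1, Sqle, Srebf2, Soat1 and Npc1), compared to 17.2% and 19.5% of all genes tested in that fit. When WC1 2 was left out, 15 were higher and 3 lower (Insig2, Soat1 and Npc1), compared to 10.1% and 8.73% of all genes tested. In the TPM matrix, in which all libraries have the same sum, 16 were called higher (13.7% of all genes tested). There the median of all genes stood at 0.10 and that of the 28 genes at 0.41, 0.30 above it, compared to 0.29 above it in CPM. Of all called genes, 77.9% were higher in TPM and 57.0% in CPM.

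**Figure D1:**
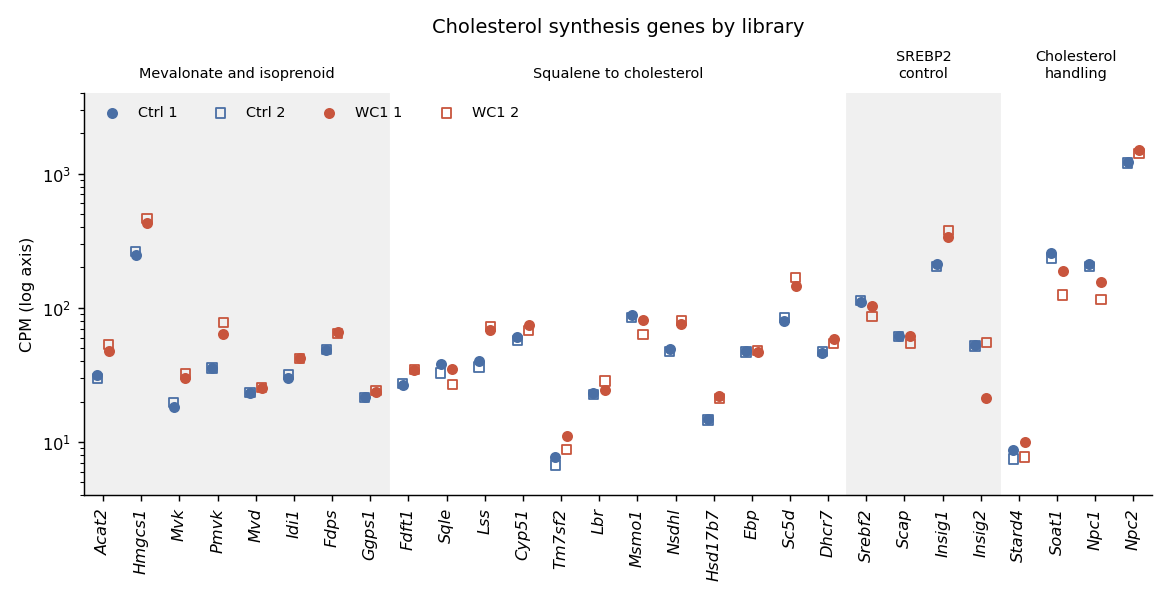
CPM (log axis) of each of the 28 genes in the 4 libraries, blue for Ctrl and red for WC1, filled circles for library 1 and open squares for library 2. Genes are in pathway order, and the shading separates their roles. Hmgcs1, Insig1, Sc5d and Pmvk show the WC1 libraries well above Ctrl, and Insig2 shows a single low WC1 library.

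The first steps join acetyl groups into mevalonate. Acat2, the cytosolic thiolase that makes acetoacetyl-CoA, was at 31.4 and 29.7 CPM in Ctrl and 48.1 and 53.2 CPM in WC1. Hmgcs1, the synthase that makes HMG-CoA, was at 248 and 261 CPM in Ctrl and 429 and 461 CPM in WC1. No Ctrl library reached either WC1 library in either gene. The log2 fold change was 0.71 ± 0.08 (SE) for Acat2 and 0.80 ± 0.08 for Hmgcs1 (limma adjusted p = 0.016 and 0.014, n = 2 per group). In linear CPM the mean of Hmgcs1 rose from 254 ± 9.53 to 445 ± 22.8 (SD, n = 2), a ratio of 1.75. Acat2 has a close copy in the genome, Acat3, which was at 3.61 and 3.15 CPM in Ctrl and 4.93 and 5.93 CPM in WC1. The treatment of reads that match both copies is not described in the sources.

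Mevalonate is then phosphorylated, decarboxylated and isomerised into the isoprenoid units. Mevalonate kinase, encoded by Mvk, was at 18.2 and 19.8 CPM in Ctrl and 30.0 and 32.1 CPM in WC1, a difference of 0.68 ± 0.09 on a log2 scale (limma adjusted p = 0.018). Pmvk, the kinase of the next step, was at 35.8 and 35.7 CPM in Ctrl and 63.8 and 78.1 CPM in WC1. Its log2 fold change of 0.96 ± 0.11 was the largest of the 28 genes (limma adjusted p = 0.016), with a ratio of 1.99 in linear CPM. In contrast, Mvd, the decarboxylase that follows, was at 23.3 and 23.4 CPM in Ctrl and 25.4 and 25.4 CPM in WC1. Its log2 fold change was 0.11 ± 0.07 (limma adjusted p = 0.31). The groups did not overlap in Mvd, and whether it differs from both kinases in its change was not tested. Idi1, the isomerase that interconverts the isoprenoid units, was at 29.8 and 32.0 CPM in Ctrl and 42.2 and 42.2 CPM in WC1 (log2 fold change 0.44 ± 0.07, limma adjusted p = 0.026). Its relative Idi2 was listed at 0 in every library.

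Farnesyl diphosphate stands at the branch between sterols and isoprenoids. Fdps, its synthase, was at 48.9 and 48.6 CPM in Ctrl and 65.9 and 64.0 CPM in WC1, a difference of 0.41 ± 0.06 on a log2 scale (limma adjusted p = 0.024). Ggps1, which extends the chain to geranylgeranyl diphosphate for protein prenylation, was at 21.8 and 21.5 CPM in Ctrl and 23.5 and 24.3 CPM in WC1 (0.14 ± 0.08, limma adjusted p = 0.25). The mean of Ggps1 was 10.4% above Ctrl. Whether the change of Fdps exceeds that of Ggps1 was not tested. In all, 6 of the 8 genes from Acat2 to the branch rose (10.2% of all genes tested did), with a median log2 fold change of 0.56.

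**Figure D2:**
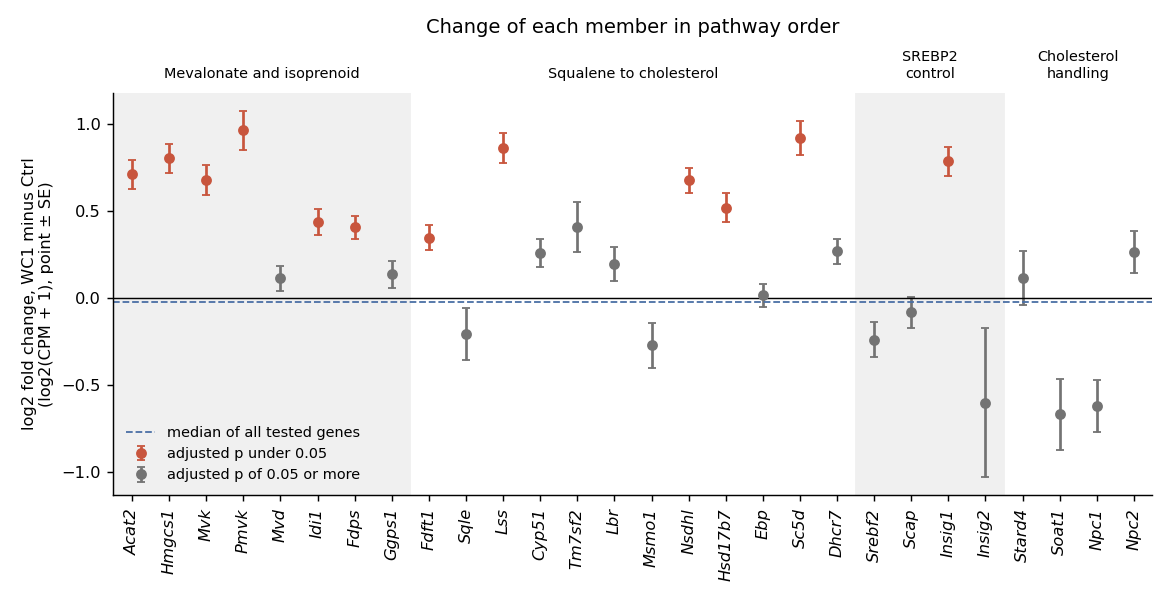
Log2 fold change, WC1 minus Ctrl, of each gene on the log2(CPM + 1) scale with its SE from limma, in pathway order. Red points are the 12 genes with an adjusted p under 0.05, grey points the other 16, and the dashed line is the median of all tested genes at -0.02.

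The promoters of 3 of the genes that rose are shown because SREBP2 is known to act through short elements close to the start site. A RefSeq table of promoters (GRCm38.p6) held 23 of the 28 genes, and the 250 bases before each start were searched on both strands for TCACNCCAC, the core of the sterol regulatory element, for CACNCCAC, a looser form that the first contains, for CCAAT, the box bound by NF-Y, and for GGGCGG, the box bound by Sp1. Sequences are printed in the direction of the gene and end before the annotated transcript, and capitals mark matches to the sterol element or to CCAAT on either strand (ATTGG where the box is on the other strand).

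Hmgcs1, chr13:119690101-119690350, plus strand: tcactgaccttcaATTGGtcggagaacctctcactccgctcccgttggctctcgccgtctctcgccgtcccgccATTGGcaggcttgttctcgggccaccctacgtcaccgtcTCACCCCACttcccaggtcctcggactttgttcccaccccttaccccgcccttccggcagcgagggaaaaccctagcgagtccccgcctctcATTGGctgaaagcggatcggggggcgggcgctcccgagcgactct

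Acat2, chr17:12960748-12960975, minus strand: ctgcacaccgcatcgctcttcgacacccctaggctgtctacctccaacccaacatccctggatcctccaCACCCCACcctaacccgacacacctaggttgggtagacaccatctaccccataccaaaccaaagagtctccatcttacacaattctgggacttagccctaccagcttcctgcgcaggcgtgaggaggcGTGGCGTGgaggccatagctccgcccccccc

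Mvk, chr5:114444061-114444268, plus strand: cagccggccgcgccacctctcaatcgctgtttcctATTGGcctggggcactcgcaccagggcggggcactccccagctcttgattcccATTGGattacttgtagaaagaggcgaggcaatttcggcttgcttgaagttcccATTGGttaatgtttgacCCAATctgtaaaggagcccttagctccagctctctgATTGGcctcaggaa

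The Hmgcs1 stretch holds 1 match to TCACNCCAC between CCAAT boxes, of which it has 3. The Acat2 stretch holds 2 matches to the looser form and 0 CCAAT boxes, and the Mvk stretch holds 0 of the sterol forms and 5 CCAAT boxes. Among the 23 genes with a promoter, 1 held TCACNCCAC (Hmgcs1), compared to 1.23% of all genes in the table, and 3 held the looser form (Acat2, Hmgcs1 and Insig1), compared to 6.05%. The box CCAAT was present in 21 of the 23 genes, compared to 37.5% of all genes in the table, and GGGCGG in 20 of 23, compared to 35.3%. The table has 26994 genes and was not limited to genes tested here, so these shares are no matched background. CCAAT was present in 9 of the 10 genes that rose and have a promoter in the table, and in 12 of the 13 that did not pass. A match describes the letters of these windows and is not evidence of binding. Mvk and Mmab, an enzyme of cobalamin metabolism, lie head to head and share the printed stretch. Mmab was at 25.3 and 28.4 CPM in Ctrl and 41.0 and 48.1 CPM in WC1. Its log2 fold change was 0.71 ± 0.11 (limma adjusted p = 0.024), close to the 0.68 of Mvk. Mmab was picked for this comparison after its values had been seen.

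From squalene onward some steps rose and others did not pass. Of the 12 enzymes, 10 had a log2 fold change above 0, compared to 6655 of the 14106 genes tested. The exceptions were Sqle and Msmo1. Fdft1, squalene synthase, was at 26.6 and 27.4 CPM in Ctrl and 34.5 and 34.7 CPM in WC1, a difference of 0.35 ± 0.07 on a log2 scale (limma adjusted p = 0.036), the smallest of the 12 increases. Its exons share 774 bases with Ctsb on the opposite strand, a cathepsin gene at 11800 and 11099 CPM in Ctrl and 8425 and 6009 CPM in WC1, so that the value of Fdft1 depends on whether strand was used in counting, which the sources do not state. Exons of 7 of the 28 genes overlap those of a protein-coding gene. Among the genes that rose these are Fdft1 and Fdps, which shares 1124 bases with Gm43738 on the same strand. Gm43738 is not listed under that name in the deposited matrices, and the annotation of the authors is not given. Whether this overlap touched the value of Fdps is therefore not known. The call of Fdft1 was also lost without a filter on low values. Sqle, squalene epoxidase and a rate-limiting step of the pathway, was at 38.3 and 32.7 CPM in Ctrl and 34.8 and 26.8 CPM in WC1. The groups overlapped in Sqle, and the difference was -0.21 ± 0.15 on a log2 scale (limma adjusted p = 0.37). Lss, the cyclase that makes lanosterol from the product of Sqle, was at 40.3 and 36.2 CPM in Ctrl and 68.3 and 72.4 CPM in WC1. Its log2 fold change of 0.86 ± 0.08 had the smallest adjusted p of the 28 genes in CPM (limma, 0.013), directly after a step that did not pass. Whether Lss and Sqle differ in their change was not tested.

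Lanosterol loses methyl groups in steps carried out by Cyp51, a sterol reductase, Msmo1 and Nsdhl. Cyp51, the lanosterol demethylase, was at 61.0 and 56.8 CPM in Ctrl and 74.0 and 67.6 CPM in WC1 (0.26 ± 0.08 on the log2 scale, limma adjusted p = 0.084). The reductase step can be carried out by Tm7sf2 or by Lbr, a protein of the inner nuclear membrane. Tm7sf2 was at 7.71 and 6.75 CPM in Ctrl and 11.1 and 8.85 CPM in WC1 (0.41 ± 0.14, limma adjusted p = 0.11), and Lbr was at 23.4 and 22.6 CPM in Ctrl and 24.6 and 28.5 CPM in WC1 (0.20 ± 0.10, limma adjusted p = 0.21). Neither reductase passed, though both WC1 libraries lay above Ctrl in both genes. Tm7sf2 shares 532 bases of exon with its neighbour Vps51 on the same strand, which makes its low count uncertain.

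Msmo1, Nsdhl and Hsd17b7 then act in turn to remove further methyl groups. Msmo1, the methylsterol oxidase, was at 87.9 and 84.8 CPM in Ctrl and 81.0 and 63.0 CPM in WC1. The log2 difference of Msmo1 was -0.27 ± 0.13 (limma adjusted p = 0.20). Nsdhl, the dehydrogenase that acts after it, was at 49.2 and 47.2 CPM in Ctrl and 75.5 and 79.9 CPM in WC1, a difference of 0.68 ± 0.07 on a log2 scale (limma adjusted p = 0.014). Hsd17b7, the ketoreductase that completes each removal, was at 14.9 and 14.6 CPM in Ctrl and 22.1 and 21.2 CPM in WC1 (0.52 ± 0.08, limma adjusted p = 0.024). Nsdhl and Hsd17b7 thus rose, and Msmo1 was below Ctrl in both WC1 libraries in CPM. Whether Msmo1 differs from them in its change was not tested. In TPM the groups overlapped in Msmo1 (92.1 and 89.7 in Ctrl, 92.5 and 74.3 in WC1).

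The last steps move and reduce double bonds. Ebp, the sterol isomerase, was at 47.3 and 46.8 CPM in Ctrl and 47.2 and 48.1 CPM in WC1. In CPM the groups overlapped and differed by 0.02 ± 0.07 on a log2 scale (limma adjusted p = 0.87). In TPM they did not overlap (51.8 and 51.8 in Ctrl, 56.4 and 59.3 in WC1), and the log2 fold change was 0.16 (limma adjusted p = 0.15). Sc5d, the desaturase that follows, was at 79.3 and 85.1 CPM in Ctrl and 145 and 168 CPM in WC1, a difference of 0.92 ± 0.10 on a log2 scale (limma adjusted p = 0.014). Only Pmvk had a larger increase among the 28. Dhcr7, the reductase that acts on the product of Sc5d, was at 46.0 and 47.2 CPM in Ctrl and 58.4 and 54.5 CPM in WC1 (0.27 ± 0.07, limma adjusted p = 0.061). Over the 12 genes from Fdft1 to Dhcr7, 5 rose (10.2% of all genes tested did) and 7 did not pass, with a median log2 fold change of 0.31. In the TPM matrix Cyp51, Tm7sf2 and Dhcr7 were also called higher (limma adjusted p = 0.036, 0.0498 and 0.029). Of the 10 alternative settings with all 4 libraries, Dhcr7 was called in 4, Cyp51 in 2 and Tm7sf2 in 1. Besides TPM these were median-of-ratios scaling, edgeR and DESeq2 for Dhcr7, and DESeq2 for Cyp51.

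Of the control circuit only Insig1 passed the test. Srebf2 was at 110 and 114 CPM in Ctrl and 104 and 86.7 CPM in WC1, with both WC1 libraries below Ctrl. In TPM the groups overlapped (46.0 and 48.1 in Ctrl, 47.3 and 40.8 in WC1). Its CPM log2 fold change of -0.24 ± 0.10 did not pass (limma adjusted p = 0.16). Scap, the escort, was at 61.6 and 60.9 CPM in Ctrl and 62.0 and 54.0 CPM in WC1, so that the groups overlapped (-0.08 ± 0.09, limma adjusted p = 0.54, and 0.06 in the TPM matrix). Insig1, which retains the complex and is itself a target of SREBP2, was at 211 and 203 CPM in Ctrl and 339 and 375 CPM in WC1. Insig1 rose by 0.79 ± 0.09 in log2 units (limma adjusted p = 0.014). The level of an mRNA does not show how much SREBP2 protein was processed, and no protein was measured in these libraries.

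Insig2 stood apart because of a single library. It was at 53.2 and 51.9 CPM in Ctrl, at 21.3 CPM in WC1 1 and at 55.1 CPM in WC1 2. The WC1 libraries thus lay 1.33 apart on the log2 scale, the widest gap between replicates among the 28 genes, whose median gap in WC1 was 0.14. With all libraries the log2 fold change of Insig2 was -0.60 ± 0.43 (limma adjusted p = 0.36). It was 0.07 without WC1 1 and -1.27 without WC1 2, so no direction can be given for Insig2. On the TPM scale, which allows genes to be compared, the ratio of the level of Insig1 to that of Insig2 was 4.01 and 3.95 in Ctrl and 15.7 and 6.67 in WC1.

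**Figure D3:**
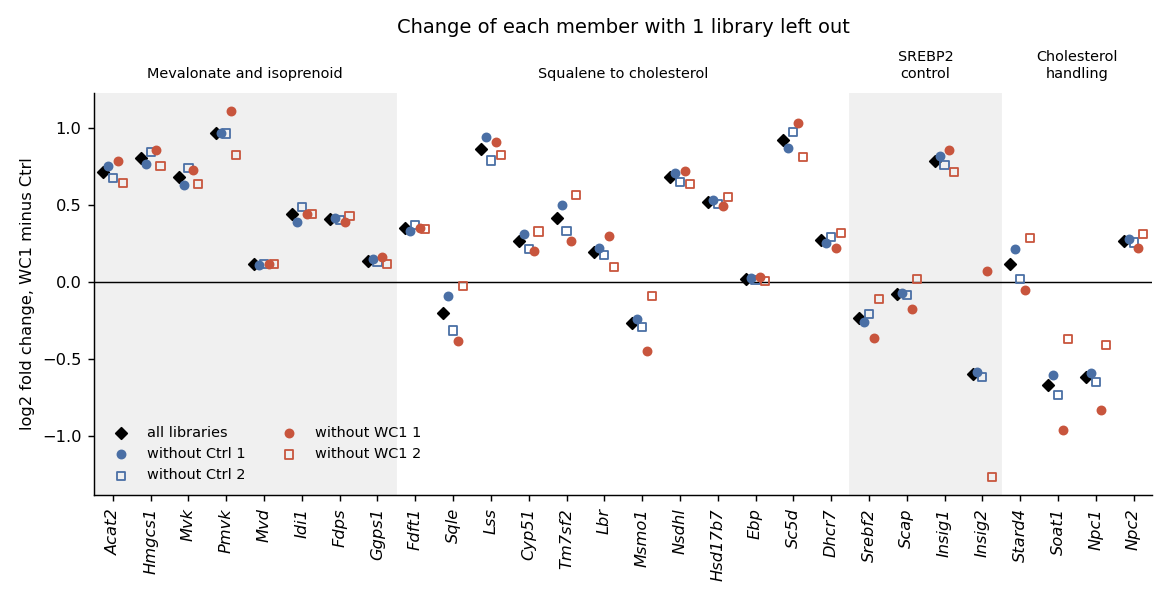
Log2 fold change, WC1 minus Ctrl, of each gene with all libraries (black diamonds) and with 1 library left out (blue for a Ctrl library, red for a WC1 library). The 12 genes that rose stay between 0.33 and 1.11, whereas Soat1 and Npc1 are lower by more without WC1 1 than without WC1 2, and Insig2 moves from -1.27 to 0.07.

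Genes of cholesterol handling showed no common direction. Npc1, the membrane protein that exports cholesterol from lysosomes, was at 211 and 203 CPM in Ctrl and 156 and 116 CPM in WC1. Its log2 fold change of -0.62 ± 0.15 lay at the threshold without passing it (limma adjusted p = 0.0505, unadjusted p = 0.0091). Its exons share 511 bases with Rmc1 on the opposite strand. Npc2, the soluble lysosomal protein that hands cholesterol to NPC1, was at 1218 and 1200 CPM in Ctrl and 1498 and 1409 CPM in WC1 (0.27 ± 0.12, limma adjusted p = 0.18). The partners of this relay therefore lay on opposite sides of Ctrl, Npc1 below and Npc2 above, and neither passed in limma on CPM. Npc2 was called higher in the TPM matrix (limma adjusted p = 0.038) and by DESeq2 (adjusted p = 0.0074). Npc1 was called lower by DESeq2 (adjusted p = 0.0016), with median-of-ratios scaling (limma adjusted p = 0.047) and with a replicate block (limma adjusted p = 0.024). Soat1, described next, was called lower by DESeq2 (adjusted p = 0.0083) and with the block (limma adjusted p = 0.028). On the TPM scale the ratio of the level of Npc2 to that of Npc1 was 9.20 and 9.45 in Ctrl and 15.4 and 19.4 in WC1.

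Soat1, which esterifies cholesterol for storage, was at 254 and 232 CPM in Ctrl and 187 and 124 CPM in WC1. The difference on a log2 scale was -0.67 ± 0.20 (limma adjusted p = 0.080). The fold change was -0.37 without WC1 2 and -0.96 without WC1 1 for Soat1, and -0.41 and -0.83 for Npc1. WC1 2 was also the library with the lowest summed macrophage markers, and the part of these in the difference was not tested. The fits without a WC1 library take their spread from the 2 Ctrl libraries alone, so they do not decide whether Soat1 or Npc1 was lower. Stard4, a soluble sterol carrier and SREBP2 target, was at 8.71 and 7.47 CPM in Ctrl and 10.0 and 7.75 CPM in WC1, with overlapping groups (0.12 ± 0.16, limma adjusted p = 0.62). Its direction depended on a single library, at -0.05 without WC1 1.

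Levels of the 28 genes were then ordered per transcript length by TPM. Npc2 was highest, at 712 ± 2.5 TPM in Ctrl and 943 ± 19.5 TPM in WC1 (SD, n = 2). Insig1 came next, at 150 ± 3.0 and 286 ± 27 TPM, followed by Hmgcs1 at 138 ± 6.2 and 266 ± 20 TPM. The TPM of Insig1 and Hmgcs1 overlapped between the WC1 libraries and did not between the Ctrl libraries. Sc5d (70.2 ± 4.0 and 148 ± 19 TPM) and Pmvk (57.6 ± 0.31 and 127 ± 21 TPM) overlapped each other in WC1 and not in Ctrl. Fdps was at 73.4 ± 0.29 and 107 ± 0.51 TPM and Msmo1 at 90.9 ± 1.7 and 83.4 ± 13 TPM, so that Msmo1 was the more abundant in Ctrl and Fdps in WC1. At the lower end stood Tm7sf2 (9.37 ± 0.81 and 14.3 ± 2.0 TPM), Hsd17b7 (6.20 ± 0.047 and 10.0 ± 0.069 TPM) and Stard4 (5.20 ± 0.53 and 6.29 ± 1.0 TPM). The enzymes with the highest TPM averaged over groups, Hmgcs1 and Sc5d, rose, but so did Hsd17b7, which was among the lowest, and Msmo1, second in Ctrl among the 20 pathway enzymes, did not.

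Further genes of the pathway were taken from lists written by hand, with earlier results of these data known. Their counts describe the lists and are not an independent test. Among 12 other target genes of SREBP factors, 8 rose and 0 fell in limma (10.2% and 7.71% of all genes tested), with a median log2 fold change of 0.78. At an unadjusted p under 0.05 stood 11 of the 12 (37.8% of all genes tested), of which Fads1, a fatty acid desaturase, was lower in both WC1 libraries (-0.44 ± 0.15, limma adjusted p = 0.11). Acss2, which makes acetyl-CoA from acetate, was at 65.0 and 70.6 CPM in Ctrl and 130 and 146 CPM in WC1 (1.02 ± 0.09 on the log2 scale). Aacs, which makes acetoacetyl-CoA from the ketone body acetoacetate, was at 46.8 and 46.7 CPM in Ctrl and 80.1 and 97.6 CPM in WC1 (0.90 ± 0.11). Lpin1, a phosphatidate phosphatase, was at 55.2 and 66.9 CPM in Ctrl and 112 and 112 CPM in WC1 (0.87 ± 0.11). The limma adjusted p values of these 3 lay between 0.012 and 0.017. Of the 8 that rose, Acly, Acss2, Elovl6 and Scd1 serve fatty acid synthesis, a branch driven mainly by SREBP1. Tmem97, a sterol-responsive gene, was at 28.9 and 27.8 CPM in Ctrl and 28.9 and 26.8 CPM in WC1 (-0.03 ± 0.08, limma adjusted p = 0.84). Fads1, Acly, Elovl6, Scd1 and Tmem97 are named outside the rule and after their values were seen.

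Lists of the machinery around the pathway were read beside the share of all genes tested that were called in either direction, 17.9%. Of 11 genes that process SREBP or degrade sterol-regulated proteins, 0 were called in limma (6 had an unadjusted p under 0.05, compared to 37.8% of all genes tested), with a median of -0.10. The smallest adjusted p values were those of Erlin2 (0.22 on the log2 scale, limma adjusted p = 0.071), the protease Mbtps2 (-0.50, 0.075) and Rnf145 (0.21, 0.085). Of 13 enzymes that use isoprenoids, Zmpste24, the protease that trims prenylated prelamin A, fell from 75.7 and 78.1 CPM to 63.2 and 58.3 CPM (-0.34 ± 0.07, limma adjusted p = 0.041), and the others did not pass (median 0.02). That is 7.69% of the list called lower, near the 7.71% of all genes tested. Rce1 (-0.39) and Rabggtb (-0.31) came closest (limma adjusted p = 0.052 and 0.054). Of 15 other genes of intracellular cholesterol handling, 1 rose and 1 fell, 13.3% of the list, with a median of -0.11. Cyp27a1, which makes a side-chain oxysterol, rose from 42.1 and 41.8 CPM to 52.4 and 51.0 CPM (0.29 ± 0.07, limma adjusted p = 0.043), and Cyp7b1, which hydroxylates oxysterols, fell from 2.81 and 2.30 CPM to 1.21 and 0.985 CPM (-0.76 ± 0.14, limma adjusted p = 0.031). Gramd1b, a carrier of cholesterol from the plasma membrane, was at 30.2 and 28.4 CPM in Ctrl and 22.9 and 17.1 CPM in WC1 (-0.54 ± 0.15, limma adjusted p = 0.065).

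**Figure D4:**
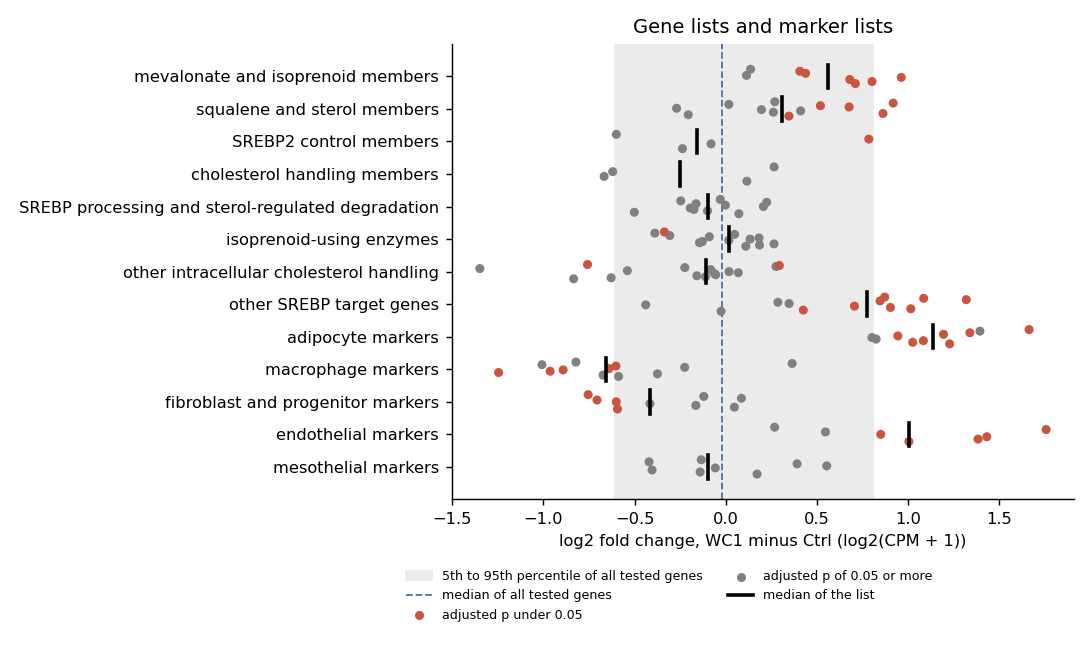
Log2 fold change, WC1 minus Ctrl, of every tested gene of the pathway lists and cell type marker lists. Red points have a limma adjusted p under 0.05, black bars are list medians, the dashed line is the median of all tested genes and the grey band holds their 5th to 95th percentile (-0.61 to 0.81). The mevalonate list (median 0.56) and the other SREBP targets (0.78) lie above the all-gene median, and the adipocyte (1.14) and endothelial markers (1.01) lie further above it.

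Beside these shifts, the adipocyte markers had log2 fold changes between 0.80 (Fabp4) and 1.66 (Cfd), with a median of 1.14. Of the 12 genes that rose, Sc5d, Pmvk, Lss and Hmgcs1 had log2 fold changes of 0.80 or more, at the level of the lowest adipocyte markers. The macrophage markers had a median of -0.66, close to the -0.67 of Soat1 and the -0.62 of Npc1, while Cd163 (0.36, limma adjusted p = 0.091) was above Ctrl. Within WC1, the adipocyte sum was higher and the macrophage sum lower in library 2 than in library 1. Of the 28 genes, 14 were lower in library 2 than in library 1. Of the 12 genes that rose, 10 were higher in library 2, and Fdps and Hsd17b7 were lower in it. Among the 10, Idi1 (42.2 CPM in both) and Fdft1 (34.5 and 34.7 CPM) were almost level. Over all genes tested the median log2 difference, WC1 2 minus WC1 1, was -0.02. The part of cell type proportions in these differences was not tested.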

How the data were processed

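Poly(A) RNA of epididymal adipose tissue had been sequenced from directional libraries (2 Ctrl, 2 WC1, grouped by title). Per the labels, the authors used fastp, HISAT2 and StringTie with mm10. Versions, read counter and annotation: not given in the sources used here. The authors deposited TPM, and a CPM matrix that is treated as a signal proportional to reads, because its columns summed to between 976415 and 1047785. Its values were whole multiples of 1 read to within 0.01 read (100% of values), so reads were recovered for edgeR 4.0.16 and DESeq2 1.42.0.

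Genes that reached 0.5 CPM in 2 or more libraries (14106) were tested on log2(CPM + 1), which understates changes of low genes, with limma 3.58.1 in R 4.3.3 (abundance trend, two-sided, Benjamini-Hochberg, threshold 0.05). Fold changes are WC1 minus Ctrl. An exact permutation test of 1 gene cannot go below p = 0.333 here. At these totals 3 reads were 0.0345 to 0.0492 CPM, for counting error only. The script was tested on simulated data. The 28 genes and all lists were chosen with earlier results of these data known. Of the other pathway lists, the 3 genes with the smallest p are named. Spring1 and Erg28 were matched by RefSeq synonyms. Exon overlaps are from GENCODE M21. Pseudocounts, filters, scalings, tools, a replicate block and left-out libraries were tried as alternatives.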

Additional observations from a re-analysis of the deposited data

How the results depend on the processing

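The number of the 28 genes called higher, 12, stayed within 1.5 times under each setting that kept all 4 libraries, and the number called lower, 0, became 1 with median-of-ratios scaling (Npc1) and 2 with DESeq2 (Soat1 and Npc1). The median log2 fold change of 0.27 was 0.41 in the TPM matrix, 0.28 with median-of-ratios scaling, 0.28 with quantile normalization, 0.29 with edgeR and 0.29 with DESeq2. Over all genes, 1443 were higher and 1088 lower. Without a filter these were 788 and 532, with more genes tested (18132). In the TPM matrix 552 were lower and with DESeq2 1736 were lower, and the cause was not tested. With 1 library left out, the remaining one of its group was taken to vary as the other group did, and the number of the 28 genes called ranged from 0 to 15 (higher) and from 0 to 5 (lower), their median from 0.24 to 0.32, and the number of all genes from 2 to 2424 (higher) and from 4 to 2748 (lower). Single genes kept direction and call in 338 of 392 values. In 25 a called gene no longer passed (24 of them with a library left out), and in 25 an uncalled gene passed. The direction turned in 4, none of them called: Scap at 0.055 in the TPM matrix and 0.018 without WC1 2 (from -0.178 when WC1 1 is left out), Insig2 at 0.067 without WC1 1 (-1.27 without WC1 2) and Stard4 at -0.052 without WC1 1.

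Libraries carry the numbers 1 and 2 in each group, and no label says that equal numbers pair the mice. The difference between libraries 1 and 2 correlated between groups across genes with r = 0.19, but 2 pairs cannot show whether the numbers mean anything. In the fit with a replicate block, 12 of the 28 genes were called higher and 2 lower (Soat1 and Npc1), and 1769 and 1497 of all genes. Every one of the 28 genes had at least 488 reads in each library, and there were 2 libraries per group.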
